A study of Rattus norvegicus with 9 samples.

Results

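The genes described here are those of the amino acid response driven by the transcription factor ATF4, together with the cytosolic aminoacyl-tRNA synthetases that charge tRNAs with amino acids. The set was given as 38 gene symbols, of which 37 were found by name among the 34267 genes of the deposited table. It held 11 transcription factors and feedback genes, 8 enzymes of amino acid synthesis and mitochondrial one-carbon metabolism, 6 amino acid transporters and 12 tRNA synthetases. Of the 37 genes, 36 passed the filter on low values, at least 1 FPKM in at least 3 libraries, and 35 reached 1 FPKM in all 9 libraries. Aldh18a1, which makes the precursor of proline, did not pass and was not tested, and Nupr1, a small stress-induced chromatin protein, had no row under that name.

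ATF4 is made when kinases that sense amino acid shortage, unfolded protein, haem shortage or double-stranded RNA phosphorylate the translation factor eIF2, which slows protein synthesis in general and favours translation of the Atf4 mRNA. With C/EBP partners, ATF4 binds composite sites whose core reads TGATGNAA and switches on genes that take up amino acids, make serine, glycine, asparagine and proline, and charge tRNAs. Its targets also include feedback genes such as Trib3, which binds ATF4, and Ppp1r15a, which directs the removal of the phosphate from eIF2. In cartilage, ATF4 is known for its part in chondrocyte proliferation and matrix production, for which collagen, rich in glycine and proline, is a large amino acid demand.

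Polyadenylated RNA was sequenced from cartilage progenitor cells, wild-type primary cultures from rat condylar cartilage (the joint cartilage of the jaw), in 9 libraries, 3 in each of 3 groups. P9 cells had been cultured to passage 9, as the study's model of replicative senescence. FFSS cells were at passage 3 and had been put under flow fluid shear stress, as its model of mechanical degeneration; the strength and duration of the flow are not given in the sources used here. P3 cells, at passage 3, were the control of both. The study asked what P9 and FFSS cells have in common. The labels do not say whether libraries were made from different rats or dishes, and a p-value here therefore reflects the spread between libraries and nothing beyond it.

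Libraries held 13264930 to 15323790 fragments, at which 1 fragment on a gene of 1 kilobase was worth 0.0619 to 0.0733 FPKM and a count of 0 allows up to 3 fragments, or 0.186 to 0.220 FPKM, covering counting error only. FFSS replicate 1 stood apart, with a Pearson r across genes of 0.915 and 0.947 with FFSS replicates 2 and 3, against 0.942, 0.936 and 0.945 with P3 replicates 1 to 3, while FFSS replicates 2 and 3 correlated at 0.969. The 14 chondrogenic markers summed to 788 to 819 FPKM in P9, 514 to 616 FPKM in FFSS and 963 to 1074 FPKM in P3, carried by Acan and Col11a1. These 14 did not move together. Acan rose in P9 (log2 fold change 2.12, limma adjusted p = 0.000288), where Col11a1 (-1.90, adjusted p = 0.000524) and Sox6 (-1.52, adjusted p = 0.000731) fell. In FFSS, Acan (-1.68, adjusted p = 0.000827) and Col11a1 (-0.85, adjusted p = 0.0155) fell, while Sox9, Sox5, Sox6 and Hapln1 rose (adjusted p = 0.00338 to 0.0315). Col2a1, the collagen of mature cartilage, stayed at or below 1.06 FPKM and Matn1 was at 0 in every library, whereas 10 mesenchymal progenitor markers summed to 2127 to 2415 FPKM in P9, 2477 to 2844 FPKM in FFSS and 2195 to 2263 FPKM in P3. Most of that sum was Thy1 and Itgb1, and other members moved in opposite directions. In P9, Mcam rose (log2 fold change 1.30, limma adjusted p = 0.0071) and Eng fell (-1.01, adjusted p = 0.0149). In FFSS, Mcam fell (-1.19, adjusted p = 0.00845), while Thy1, Eng, Pdgfra and Pdgfrb rose (adjusted p = 0.00647 to 0.0416). The 9 leukocyte markers summed to 6.19 to 7.02 FPKM in P9, 42.1 to 101 FPKM in FFSS and 9.47 to 11.1 FPKM in P3, mostly from Cd14. Cd68, of macrophages, also rose in FFSS, with 2.16, 2.6 and 2.11 FPKM in FFSS against 0.533, 0.643 and 0.873 FPKM in P3 (log2 fold change 0.97, adjusted p = 0.0078). Csf1r, another macrophage marker, stood at 0.0840, 3.17 and 2.08 FPKM in FFSS against 0.0830, 0.0182 and 0.187 FPKM in P3. Ptprc and Adgre1 did not pass 0.0400 and 0.0222 FPKM in any library and Cd3e was at 0 in all. The 5 skeletal muscle markers summed to 39.9 to 47.1 FPKM in P9, 0.686 to 2.08 FPKM in FFSS and 2.98 to 14.2 FPKM in P3, mostly from Acta1, which rose in P9 (adjusted p = 0.0132) and fell in FFSS (adjusted p = 0.0136), and Myh1 rose in P9 (adjusted p = 0.000411). The 5 glial and Schwann cell markers summed to 18.1 to 26.6 FPKM in P9, 65.0 to 89.9 FPKM in FFSS and 15.2 to 28.8 FPKM in P3, mostly from S100b, which rose in FFSS (adjusted p = 0.00338). Endothelial, epithelial and erythroid markers each summed to at most 2.13 FPKM in any library. Mitochondrial transcripts took 2.31 to 2.56% of fragments in P9, 2.96 to 3.75% in FFSS and 2.12 to 2.32% in P3. The part of these shifts in the results below was not tested. In RNA from whole cultures, fewer cells that express a gene and less of its RNA per cell cannot be told apart.

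The letters that ATF4 reads with a C/EBP partner are shown first, as they stand in the promoters of these genes. RefSeq promoters of the rat build GRCr8, from 250 bases before to 50 bases after the annotated start, were found for 32 of the 37 genes; those of Trib1, Eif4ebp1, Aldh18a1, Slc1a5 and Gars were not. The motif TGATGNAA, read on both strands, occurred in 12 of the 32 promoters (37.5%), against 1332 of all 33469 promoters in the table (3.98%). Its form TGATGCAA, which is contained in TGATGNAA, occurred in 10 of the 32 (31.25%), against 266 of 33469 (0.795%). By role, TGATGCAA was found in 7 of 11 synthetase promoters (63.6%), 1 of 9 factor and feedback promoters, 1 of 7 enzyme promoters and 1 of 5 transporter promoters. A match describes these letters and is not evidence of binding. Of the TGATGCAA matches, 9 are given below in the direction of the gene, with the motif in capitals (TTGCATCA is TGATGCAA on the opposite strand) and the position of its first base counted from the start of the gene.
Chac1, chr3:126795953-126795982, plus strand, position -167: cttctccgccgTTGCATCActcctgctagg
Pycr1, chr10:106420925-106420954, minus strand, position -131: ggtcctgtgtaTGATGCAAtgtacaaggct
Slc1a4, chr14:98761779-98761808, minus strand, position -235: cgcctccagcgTTGCATCAtccagccagca
Cars (RefSeq Cars1), chr1:208225334-208225363, minus strand, position 18: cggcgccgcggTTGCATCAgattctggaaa
Iars (RefSeq Iars1), chr17:15193658-15193687, minus strand, position -24: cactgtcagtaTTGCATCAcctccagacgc
Mars (RefSeq Mars1), chr7:65023752-65023781, minus strand, position -17: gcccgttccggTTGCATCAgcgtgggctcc
Nars (RefSeq Nars1), chr18:60275778-60275807, minus strand, position -14: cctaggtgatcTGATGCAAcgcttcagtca
Tars (RefSeq Tars1), chr2:62114811-62114840, minus strand, position -27: ctggcgtcccgTTGCATCAgctggttagct
Yars (RefSeq Yars1), chr5:146820190-146820212, plus strand, position 39: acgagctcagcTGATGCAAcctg

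In P9 cells, amino acid transporters and feedback genes of the response were among those that fell. Of the 36 tested genes, 9 fell and 1 rose against P3 (limma, Benjamini-Hochberg adjusted p under 0.05 over all 13059 tested genes), where 4.44% of all tested genes fell and 5.39% rose. The genes that fell were the transporters Slc7a5, Slc3a2 and Slc1a5, the synthetases Eprs, Cars and Tars, and Cebpg, Trib3 and Stc2, while Trib1 rose. All 3 P9 libraries lay below all 3 P3 libraries for 25 of the 36 genes, against 19.1% of all tested genes, and above them for 1, against 20.9%. The median log2 fold change of the 36 was -0.39, against -0.00 over all tested genes; fold changes are differences of log2(FPKM + 1). FFSS libraries enter the shared estimate of the spread, and without FFSS replicate 1 the count was 18 lower and 1 higher, where 7.78% of all tested genes were lower and 9.53% higher. Without FFSS replicate 2 it was 14 lower, where 5.86% of all tested genes were. The 1 rise, of Trib1, was lost without any one P9 or P3 library. Fitted on P9 and P3 libraries alone, 20 were lower and 1 was higher, where 8.76% of all tested genes were lower and 11.1% higher.

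In FFSS cells, most of the enzymes and synthetases fell, while Ppp1r15a, Trib1 and the transporter Slc38a2 rose and the Atf4 mRNA itself did not pass the test. Of the 36 tested genes, 22 fell and 3 rose against P3, where 10.4% of all tested genes fell and 11.4% rose. All FFSS libraries lay below all P3 libraries for 26 of the 36, against 22.3% of all tested genes, and above them for 4, against 20.1%. The 3 rises, and the 4 genes wholly above P3, are thus no more than the background. The median log2 fold change was -0.54, against -0.01 over all tested genes. Without FFSS replicate 1 the count was 21 lower and 4 higher, where 19.7% of all tested genes were lower and 19.3% higher. Without P3 replicate 1 it was 14 lower, where 4.03% of all tested genes were. The comparisons of P9 and FFSS share the P3 libraries, so their values are given side by side below.

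**Figure D1:**
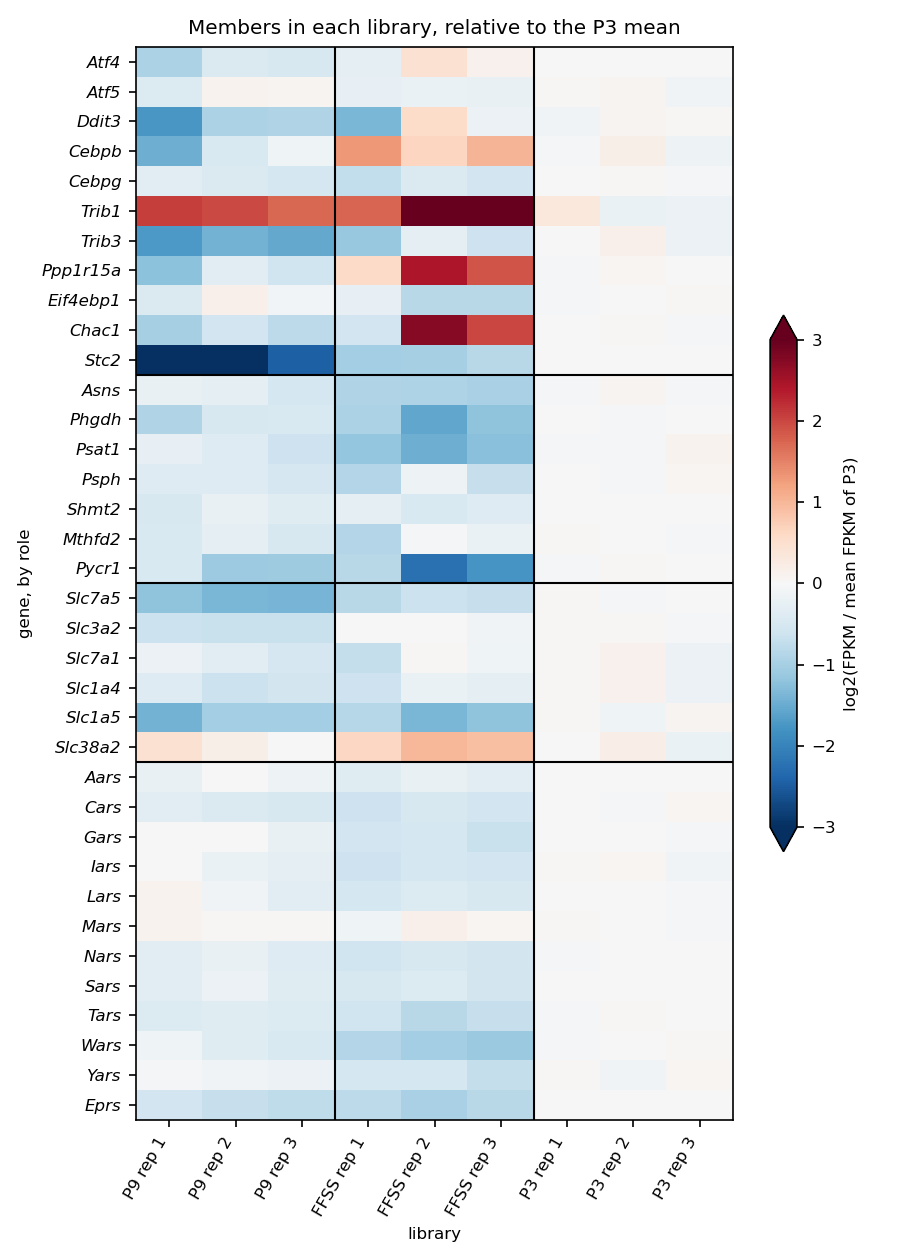
Heat map of the 36 tested genes (rows, grouped by role with lines between factors and feedback, enzymes, transporters and synthetases) in the 9 libraries (columns), as log2 of FPKM over the mean FPKM of P3; blue is lower and red higher, and colours end at 3 in either direction. Ddit3, Ppp1r15a, Chac1 and Trib1 are redder in FFSS replicates 2 and 3 than in FFSS replicate 1, while the medians of the synthetases in the 3 FFSS libraries are -0.57, -0.51 and -0.57.

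P9 set directly against FFSS tests whether the models differ, and 9 of the 36 genes were lower and 8 higher in P9, where 15.3% of all tested genes were lower and 16.1% higher. Lower in P9 were 6 of the 11 factors and feedback genes and 3 of the 6 transporters, and higher in P9 were 3 of the 7 tested enzymes and 5 of the 12 synthetases; no factor or transporter was higher and no enzyme or synthetase lower. P9 libraries lay wholly below FFSS libraries for 9 genes, against 20% of all tested genes, and wholly above for 12, against 22.2%. Without FFSS replicate 1, 11 were lower and 10 higher, where 22% of all tested genes were lower and 23.7% higher. Without P9 replicate 2 or FFSS replicate 3, 5 were higher, where 10.0 to 10.8% of all tested genes were. Eif4ebp1, a factor and feedback gene, was higher in P9 without FFSS replicate 1 or P9 replicate 1 (adjusted p = 0.00668 to 0.0393).

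Among the factors, Atf4, on chromosome 7 from 121480723 to 121482772 of Rnor_6.0, was measured at 129, 185 and 179.5 FPKM in P9, at 206, 342 and 272 FPKM in FFSS and at 252, 252 and 247 FPKM in P3. The P9 libraries lay below all others, and the FFSS libraries spread around P3, with replicate 1 lowest. Its log2 fold change was -0.62 (SE 0.20) in P9 against P3 (adjusted p = 0.093) and 0.10 (95% interval -0.36 to 0.55) in FFSS against P3 (adjusted p = 0.762). It was lower in P9 than in FFSS by a log2 fold change of -0.72 (adjusted p = 0.0254), a call lost without P9 replicate 1, FFSS replicate 2 or FFSS replicate 3 (adjusted p = 0.068 to 0.0757). In P9 against P3 the call was gained without FFSS replicate 1 or 2 (adjusted p = 0.0273 to 0.0455). ATF4 is controlled largely by translation and protein stability, neither of which was measured here.

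Ddit3 encodes CHOP, a factor induced by ATF4 that promotes cell death under lasting stress. It stood at 28.4, 49.0 and 50.4 FPKM in P9, at 36.7, 138 and 83.8 FPKM in FFSS and at 87.9, 99.5 and 96.1 FPKM in P3. Every P9 library was below every P3 library, while in FFSS replicate 1 was far below P3 and replicate 2 above it. The log2 fold change was -1.17 in P9 against P3 (adjusted p = 0.125; 0.0137 to 0.0452 without FFSS replicate 1 or 2), and -0.32 in FFSS against P3 (adjusted p = 0.609). Ddit3 on the plus strand and Mars on the minus strand share 72 bases at their ends, and whether the fragments were counted by strand is not given in the sources used here.

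Atf5, a relative of ATF4 whose mRNA is also translated under stress, had the highest mean of the set in P9 (228 ± 43.2 FPKM, against 203 ± 2.23 FPKM in FFSS and 237 ± 14.8 FPKM in P3; SD, n = 3) and passed the test in neither model (adjusted p = 0.815 in P9 and 0.303 in FFSS). Cebpg, the small C/EBP partner with which ATF4 pairs, fell in both. It stood at 19.3, 18.3 and 17.0 FPKM in P9, at 14.8, 18.3 and 16.4 FPKM in FFSS and at 24.3, 25.3 and 24.1 FPKM in P3, so that no P9 or FFSS library reached a P3 library. It fell by 0.42 on the log2 scale in P9 (adjusted p = 0.0447) and by 0.55 in FFSS (adjusted p = 0.00974). The P9 call was lost without any one P9 or P3 library or FFSS replicate 3 (adjusted p = 0.0653 to 0.153).

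Cebpb, the C/EBP factor of inflammation and differentiation, differed between the models. It was measured at 26.6, 53.8 and 68.0 FPKM in P9, at 181, 115 and 151 FPKM in FFSS and at 71.9, 83.7 and 66.1 FPKM in P3. All FFSS libraries were above P3, and here FFSS replicate 1 was the highest. It was lower in P9 than in FFSS by a log2 fold change of -1.65 (adjusted p = 0.00481). Against P3 neither change passed, with a log2 fold change of -0.66 in P9 (adjusted p = 0.248) and 0.98 in FFSS (95% interval 0.28 to 1.69, adjusted p = 0.0525; 0.0112 to 0.0404 without P9 replicate 1 or 3, 0.0203 with only the 2 groups fitted, 0.0424 with voom and 0.0482 with a filter of 5 FPKM).

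The feedback genes moved in different directions. Trib3, a pseudokinase that binds ATF4 and restrains it, stood at 19.2, 23.8 and 21.6 FPKM in P9, at 28.5, 51.2 and 41.0 FPKM in FFSS and at 63.5, 69.8 and 56.3 FPKM in P3. The 3 groups did not overlap. Its log2 fold change was -1.51 (SE 0.198, adjusted p = 0.00207) in P9 against P3, a mean 0.341 times that of P3, and -0.67 (adjusted p = 0.0414) in FFSS against P3. The FFSS call was lost without P9 replicate 2 or 3, FFSS replicate 3 or any one P3 library (adjusted p = 0.0592 to 0.133). P9 was also lower than FFSS (log2 fold change -0.84, adjusted p = 0.0129).

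Trib1, a second pseudokinase of that family, which steers C/EBP proteins to degradation, was the 1 gene of the set that rose in P9. Its levels were 16.5, 15.6 and 12.9 FPKM in P9, 13.3, 46.3 and 44.3 FPKM in FFSS and 4.86, 3.42 and 3.50 FPKM in P3. The P9 libraries were all several times the P3 level, and FFSS replicates 2 and 3 were higher again. The log2 fold change was 1.70 (SE 0.405, adjusted p = 0.0309) in P9 and 2.68 (SE 0.405, adjusted p = 0.00368) in FFSS, and 3.24 in FFSS without FFSS replicate 1. The P9 call was lost without any one P9 or P3 library (adjusted p = 0.0699 to 0.11), without the filter on low values and with voom.

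Ppp1r15a encodes GADD34, the subunit that brings a phosphatase to eIF2 and so ends the response. It was measured at 15.3, 28.7 and 23.8 FPKM in P9, at 53.9, 193 and 133 FPKM in FFSS and at 35.2, 37.3 and 35.7 FPKM in P3. Every FFSS library was above P3 and every P9 library below it. Its log2 fold change was 1.60 (SE 0.409, adjusted p = 0.0247) in FFSS against P3, and 2.12 (adjusted p = 0.000501) without FFSS replicate 1. That call was lost without FFSS replicate 2 or 3 or any one P3 library (adjusted p = 0.0596 to 0.0851). Against P3 the P9 change of -0.69 did not pass (adjusted p = 0.366), whereas P9 was lower than FFSS by a log2 fold change of -2.30 (adjusted p = 0.00363).

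Chac1, an enzyme that degrades glutathione and a sensitive marker of ATF4 activity, was called or not in FFSS according to 1 library. It stood at 16.6, 22.2 and 19.1 FPKM in P9, at 22.4, 222 and 134 FPKM in FFSS and at 33.1, 34.0 and 32.6 FPKM in P3. FFSS replicate 1 was below P3 and FFSS replicates 2 and 3 were far above it. In FFSS against P3 the log2 fold change was 1.38 (95% interval -0.14 to 2.89, adjusted p = 0.166), and 2.34 (adjusted p = 0.000146) without FFSS replicate 1. All P9 libraries were below all P3 libraries, with a log2 fold change of -0.76 that did not pass (adjusted p = 0.56; 0.0235 without FFSS replicate 1). In P9 against FFSS it was -2.14 (adjusted p = 0.039), a call lost without any one library other than FFSS replicate 1 (adjusted p = 0.0583 to 0.126). Its promoter was the 1 among the factors and feedback genes that held TGATGCAA.

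**Figure D2:**
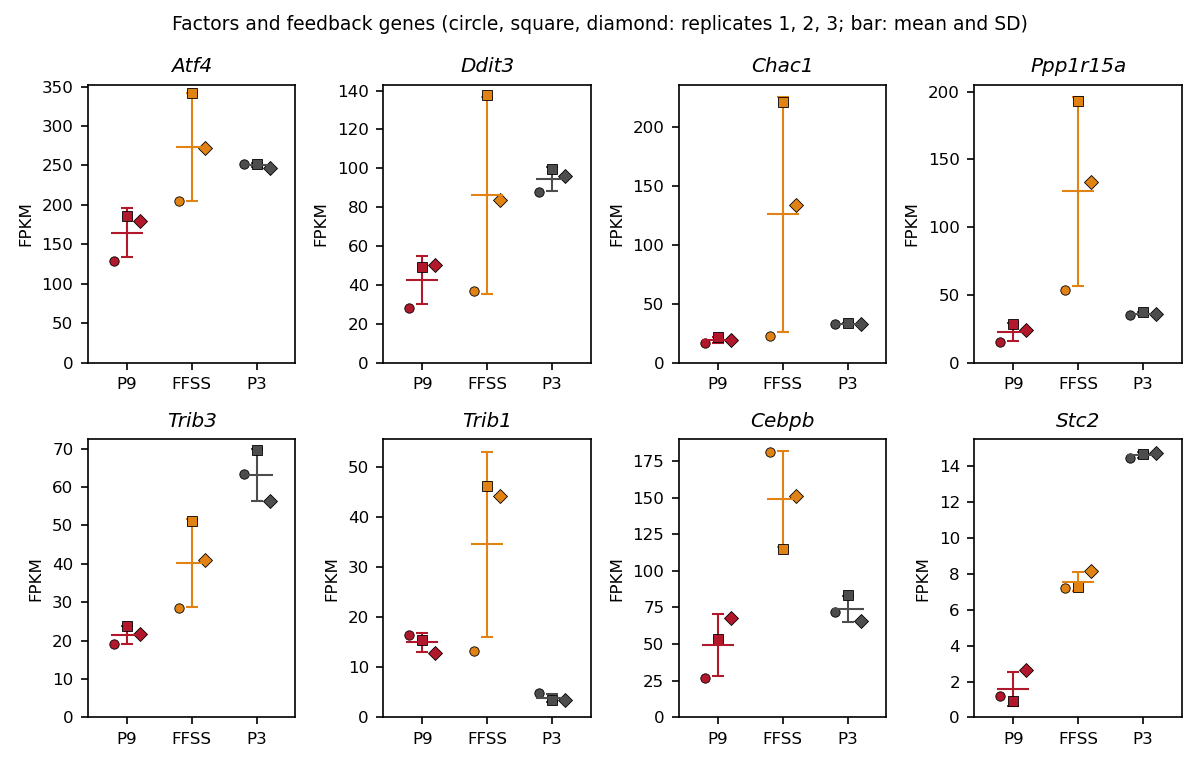
FPKM of 8 factors and feedback genes in each library, with P9, FFSS and P3 from left to right; circle, square and diamond are replicates 1, 2 and 3, and bars are the mean and SD (n = 3). Stc2 and Trib3 are ordered P9 below FFSS below P3 with no overlap, and Chac1 reaches 222 FPKM in FFSS replicate 2 and 22.4 FPKM in FFSS replicate 1.

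Stc2, stanniocalcin 2, a secreted glycoprotein induced by ATF4, had the largest fall of the set in P9. Its levels were 1.18, 0.927 and 2.66 FPKM in P9, 7.22, 7.27 and 8.17 FPKM in FFSS and 14.4, 14.7 and 14.8 FPKM in P3. The groups did not overlap and the P3 and FFSS libraries were tight. The log2 fold change was -2.65 (SE 0.218, adjusted p = 0.000276) in P9, a mean 0.109 times that of P3, and -0.87 (adjusted p = 0.0229) in FFSS. The FFSS call was lost without FFSS replicate 2 or 3 or any one P3 library (adjusted p = 0.0553 to 0.0741) and with a pseudocount of 0.1 (adjusted p = 0.0637). P9 was lower than FFSS by a log2 fold change of -1.78 (adjusted p = 0.000578).

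Eif4ebp1, the translation inhibitor 4E-BP1, stood at 104, 156 and 132 FPKM in P9, at 118, 78.1 and 78.1 FPKM in FFSS and at 135, 141 and 144 FPKM in P3. It fell in FFSS by 0.64 on the log2 scale (adjusted p = 0.0451), with FFSS replicate 1 nearest to P3. The call was lost without P9 replicate 3, FFSS replicate 2 or 3 or any one P3 library (adjusted p = 0.0659 to 0.148). In P9 the values overlapped P3 (log2 fold change -0.12, adjusted p = 0.779). Over the 11 factors and feedback genes, 3 fell and 1 rose in P9, where 4.44% of all tested genes fell and 5.39% rose. The single rise in P9 is thus near the background. For FFSS, 4 of the 11 fell and 2 rose, against 10.4% and 11.4% of all tested genes. Leaving out FFSS replicate 1 gave 6 lower and 1 higher in P9, against 7.78% and 9.53% of all tested genes. For FFSS it gave 4 lower and 3 higher, against 19.7% and 19.3%. Without FFSS replicate 2, 5 of the 11 fell in P9, where 5.86% of all tested genes did. In FFSS, 1 or 2 fell without P9 replicate 3, FFSS replicate 2 or 3 or any one P3 library, where 4.03 to 8.93% of all tested genes fell. Only 1 rose without FFSS replicate 2 or 3 or any one P3 library, where 5.09 to 8.35% of all tested genes rose. The median log2 ratio of the 11 genes to the P3 mean was -1.0, -0.43 and -0.53 in the P9 libraries and -0.28, 0.45 and -0.17 in the FFSS libraries.

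The enzymes that make amino acids from glycolytic and mitochondrial precursors fell in FFSS, 6 of the 7 tested, and all 7 had every FFSS library below every P3 library. Of all tested genes, 10.4% fell in FFSS and 22.3% lay wholly below P3. The FFSS count of 6 was 4 or 5 when single libraries were left out, where 4.03 to 19.7% of all tested genes fell. In P9, all 7 also lay wholly below P3, against 19.1% of all tested genes, and none of the 7 passed the test. There, 6 were lower at an unadjusted p under 0.05 and 1 passed with voom. Of all 13059 tested genes, 1445 were lower in P9 at an unadjusted p under 0.05 and 577 with voom. Without FFSS replicate 1, 4 passed, where 7.78% of all tested genes fell. Without FFSS replicate 2, 2 passed, where 5.86% of all tested genes fell. With only the P9 and P3 libraries fitted, 6 passed (adjusted p = 0.0127 to 0.0484), where 8.76% of all tested genes fell. Summed over the 8 enzymes, FPKM was 270.5 to 298 in P9, 222 to 227 in FFSS and 383 to 385 in P3. Median log2 ratios to P3 were -0.89, -0.93 and -0.98 in the FFSS libraries and -0.45, -0.39 and -0.50 in the P9 libraries, while single enzymes such as Pycr1, Mthfd2 and Psph differed more between FFSS libraries.

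Phgdh, Psat1 and Psph are the successive enzymes that make serine from 3-phosphoglycerate. Phgdh stood at 48.5, 65.3 and 65.8 FPKM in P9, at 47.1, 31.1 and 39.7 FPKM in FFSS and at 91.5, 89.3 and 92.3 FPKM in P3. Every FFSS library was the lowest, every P3 library the highest. Phgdh had a log2 fold change of -1.21 (SE 0.169, adjusted p = 0.00271) in FFSS and -0.61 in P9 (adjusted p = 0.0557; 0.021 to 0.0245 without FFSS replicate 1 or 2). Psat1 stood at 32.7, 29.5 and 25.0 FPKM in P9, at 17.3, 13.9 and 16.4 FPKM in FFSS and at 37.1, 37.5 and 41.7 FPKM in P3. Its groups did not overlap, and it fell in FFSS by 1.24 on the log2 scale (SE 0.130, adjusted p = 0.000827), with -0.41 in P9 (adjusted p = 0.0906).

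Psph, the phosphatase of the last step, was less separated. It stood at 25.1, 25.1 and 23.1 FPKM in P9, at 17.7, 29.4 and 20.4 FPKM in FFSS and at 32.4, 31.8 and 34.1 FPKM in P3, with FFSS replicate 2 near P3. The FFSS log2 fold change of -0.55 (adjusted p = 0.0434) lost its call without any single library other than FFSS replicate 2 (adjusted p = 0.0541 to 0.134). In P9 it was -0.41 (adjusted p = 0.176; 0.0295 without FFSS replicate 2).

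Asns makes asparagine and is the classic target of the amino acid response. It was measured at 57.4, 55.3 and 46.9 FPKM in P9, at 35.7, 35.2 and 34.1 FPKM in FFSS and at 66.2, 71.0 and 64.7 FPKM in P3. The FFSS libraries lay within a narrow band far below P3, with P9 between. The log2 fold change was -0.92 (SE 0.105, adjusted p = 0.00117) in FFSS, a mean 0.52 times that of P3, and -0.34 in P9 (adjusted p = 0.0847). P9 was higher than FFSS by 0.58 (adjusted p = 0.00384), as were Psat1 by 0.83 (adjusted p = 0.00194) and Phgdh by 0.60 (adjusted p = 0.0265; lost without P9 replicate 2 or 3 or FFSS replicate 2 or 3, 0.0683 to 0.0901).

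Pycr1, which completes proline synthesis in mitochondria, stood at 16.0, 10.4 and 10.4 FPKM in P9, at 12.2, 4.66 and 6.40 FPKM in FFSS and at 21.3, 22.7 and 21.9 FPKM in P3. Its log2 fold change of -1.48 (SE 0.289, adjusted p = 0.00933) in FFSS was the largest fall among the enzymes, and FFSS replicates 2 and 3 were the lowest libraries. In P9 it was -0.82 (adjusted p = 0.125; 0.015 without FFSS replicate 1). The earlier proline enzyme, Aldh18a1, was near the limit of counting, at 0.105, 0.698 and 0.374 FPKM in P9, at 1.46, 0.277 and 0.523 FPKM in FFSS and at 0.457, 0.522 and 0.741 FPKM in P3.

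Shmt2 and Mthfd2 take serine into the mitochondrial one-carbon cycle. Shmt2 stood at 47.6, 56.7 and 52.0 FPKM in P9, at 55.1, 48.7 and 50.7 FPKM in FFSS and at 67.0, 66.3 and 65.9 FPKM in P3. Neither P9 nor FFSS overlapped P3, and the log2 fold changes were close, -0.35 in P9 (adjusted p = 0.066; 0.0307 without FFSS replicate 1) and -0.36 in FFSS (adjusted p = 0.0344). The FFSS call was lost without P9 replicate 3, FFSS replicate 2 or 3 or any one P3 library (adjusted p = 0.0522 to 0.119). Mthfd2, at 47.9, 54.6 and 46.9 FPKM in P9, 35.7, 63.5 and 57.3 FPKM in FFSS and 66.7, 65.2 and 64.2 FPKM in P3, passed in neither (log2 fold change -0.39, adjusted p = 0.273 in P9, and 0.0234 without FFSS replicate 1; -0.36, adjusted p = 0.203 in FFSS).

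Of the 6 transporters, 3 fell in P9, and 2 fell and 1 rose in FFSS. The shares of all tested genes were 4.44% for falls in P9, 10.4% for falls in FFSS and 11.4% for rises in FFSS. Slc7a5 (LAT1) imports leucine and other large neutral amino acids as a heterodimer with Slc3a2 (CD98). Slc7a5 stood at 54.2, 48.3 and 47.5 FPKM in P9, at 70.2, 79.1 and 77.5 FPKM in FFSS and at 128, 121 and 124 FPKM in P3. The 3 groups were tight and separate. Slc7a5 had a log2 fold change of -1.30 (SE 0.0986, adjusted p = 0.000221) in P9, a mean 0.402 times that of P3, and -0.71 (SE 0.0986, adjusted p = 0.00261) in FFSS, and P9 was lower than FFSS by -0.59 (adjusted p = 0.00273).

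Slc3a2 was measured at 137, 136 and 135 FPKM in P9, at 215, 215 and 200.2 FPKM in FFSS and at 219.6, 221 and 205 FPKM in P3. P9 was well below both others, and FFSS overlapped P3. It fell in P9 by 0.66 on the log2 scale (SE 0.0907, adjusted p = 0.00263), and in FFSS the change was -0.03 (95% interval -0.24 to 0.17, adjusted p = 0.813). The FPKM of Slc3a2 over that of Slc7a5, both per length, was 2.54, 2.82 and 2.84 in P9, 3.07, 2.72 and 2.58 in FFSS and 1.72, 1.83 and 1.66 in P3. The ratio was therefore higher than in P3 in each P9 and each FFSS library, with Slc7a5 and Slc3a2 both lower in P9 and Slc7a5 alone called in FFSS.

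Slc1a5 (ASCT2), a glutamine carrier, fell alike in both models. It stood at 10.5, 13.9 and 14.0 FPKM in P9, at 15.6, 10.9 and 12.3 FPKM in FFSS and at 28.8, 26.0 and 30.0 FPKM in P3, with no P9 or FFSS library near P3. Slc1a5 had a log2 fold change of -1.09 (SE 0.159, adjusted p = 0.00329) in P9 and -1.08 (SE 0.159, adjusted p = 0.0033) in FFSS, and P9 minus FFSS was -0.01 (95% interval -0.37 to 0.35). Slc38a2 (SNAT2), a sodium-coupled carrier of small neutral amino acids induced by amino acid shortage and osmotic stress, went the other way. It stood at 237, 195 and 173 FPKM in P9, at 264, 344 and 321 FPKM in FFSS and at 171, 197 and 149 FPKM in P3. All FFSS libraries were above P3, while P9 overlapped it.

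Slc38a2 rose in FFSS by a log2 fold change of 0.84 (SE 0.164, adjusted p = 0.0093) and had the highest mean of the set there, 309 ± 41.2 FPKM (SD, n = 3). In P9 the change was 0.23 (adjusted p = 0.468), and P9 was lower than FFSS by -0.62 (adjusted p = 0.021; 0.0611 to 0.0708 without P9 replicate 2 or 3 or FFSS replicate 2 or 3). Slc7a1, the carrier of arginine and lysine, and Slc1a4 (ASCT1), a carrier of serine and alanine, passed in neither model. Slc1a4 stood at 77.3, 64.9 and 68.9 FPKM in P9, at 65.1, 87.6 and 83.7 FPKM in FFSS and at 103, 110.4 and 88.7 FPKM in P3 (log2 fold change -0.51, adjusted p = 0.06 in P9, and 0.016 to 0.046 without FFSS replicate 1 or 2; -0.36, adjusted p = 0.107 in FFSS). Slc7a1 had log2 fold changes of -0.32 in P9 (adjusted p = 0.36) and -0.25 in FFSS (adjusted p = 0.359).

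**Figure D3:**
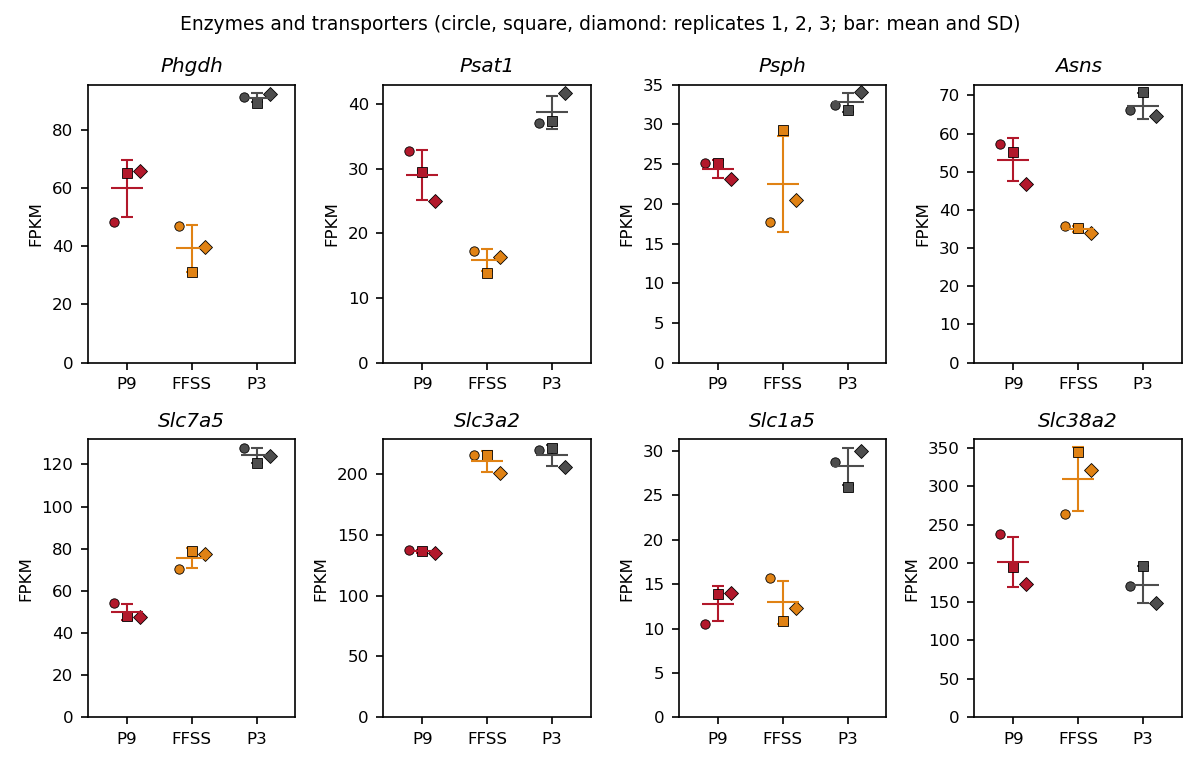
FPKM of 4 enzymes (top) and 4 transporters (bottom) in each library, with P9, FFSS and P3 from left to right; circle, square and diamond are replicates 1, 2 and 3, and bars are the mean and SD (n = 3). The FFSS libraries are lowest for Psat1 and Asns, the P9 libraries are lowest for Slc7a5 and Slc3a2, and Slc38a2 is highest in FFSS.

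Most of the cytosolic tRNA synthetases fell in FFSS. Of 12, 10 fell and 11 had every FFSS library below every P3 library, against 10.4% and 22.3% of all tested genes. The fitted changes of the 10 ran from -0.46 to -0.97 on the log2 scale. In P9, 3 fell, Cars, Tars and Eprs, and 6 lay wholly below P3, against 4.44% and 19.1% of all tested genes. Summed over the 12, FPKM was 764 to 844 in P9, 655 to 686 in FFSS and 973 to 975 in P3. The median log2 ratio to P3 was -0.57, -0.51 and -0.57 in the 3 FFSS libraries, so the median of FFSS replicate 1 was like those of the others, against -0.17, -0.18 and -0.35 in P9. Leaving out FFSS replicate 1 gave 4 lower in P9 and 10 in FFSS, where 7.78% and 19.7% of all tested genes were lower. Over all single omissions the FFSS count was 7 to 11, where 4.03 to 19.7% of all tested genes were lower. In P9, 1 fell without P9 replicate 2 or 3, FFSS replicate 3 or any one P3 library. In those fits 1.99 to 3.64% of all tested genes fell. The 5 that were higher in P9 than in FFSS became 3 without P9 replicate 1 or 2, FFSS replicate 3 or P3 replicate 1. There, 10.0 to 12.8% of all tested genes were higher.

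Eprs, the enzyme that charges both glutamate and proline tRNAs, stood at 92.7, 85.5 and 80.3 FPKM in P9, at 78.9, 70.2 and 77.3 FPKM in FFSS and at 137, 137 and 138 FPKM in P3. It lay far below P3 in all 6 libraries, whose own ranges did not overlap between P9 and FFSS. It fell by 0.67 in P9 (SE 0.0977, adjusted p = 0.00334) and by 0.85 in FFSS (SE 0.0977, adjusted p = 0.00117) on the log2 scale. Wars, for tryptophan, had the largest fall in FFSS among the 12 synthetases. It stood at 41.3, 34.8 and 33.0 FPKM in P9, at 24.5, 22.1 and 20.7 FPKM in FFSS and at 44.0, 44.6 and 46.1 FPKM in P3. The FFSS mean was 0.499 times the P3 mean, a log2 fold change of -0.97 (SE 0.115, adjusted p = 0.00134), and P9 overlapped neither (log2 fold change -0.30, adjusted p = 0.15).

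Tars, for threonine, stood at 42.4, 44.1 and 42.8 FPKM in P9, at 37.5, 31.7 and 35.0 FPKM in FFSS and at 55.1, 57.5 and 57.0 FPKM in P3, with no overlap of the groups. Its log2 fold change was -0.38 in P9 (adjusted p = 0.0365) and -0.69 in FFSS (adjusted p = 0.00256). Cars, for cysteine, stood at 38.1, 35.4 and 34.2 FPKM in P9, at 31.2, 34.3 and 32.0 FPKM in FFSS and at 47.4, 46.2 and 49.4 FPKM in P3, and its log2 fold change was -0.40 in P9 (adjusted p = 0.0295) and -0.54 in FFSS (adjusted p = 0.00636). Both lay below P3 in all 6 libraries. The P9 call of Tars was lost without any one P9 or P3 library or FFSS replicate 3 (adjusted p = 0.0659 to 0.136). That of Cars was lost without P9 replicate 2 or 3, FFSS replicate 3 or any one P3 library (adjusted p = 0.0545 to 0.13).

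Gars, for glycine, and Yars, for tyrosine, fell in FFSS and were higher in P9 than in FFSS. Gars stood at 130.4, 131 and 110.4 FPKM in P9, at 87.6, 89.4 and 81.0 FPKM in FFSS and at 131, 131 and 127 FPKM in P3. P9 overlapped P3 (log2 fold change -0.07, adjusted p = 0.766) and FFSS fell by 0.59 on the log2 scale (adjusted p = 0.00659), with P9 higher than FFSS by 0.52 (adjusted p = 0.00602). Yars stood at 50.6, 48.5 and 46.0 FPKM in P9, at 35.9, 36.3 and 31.6 FPKM in FFSS and at 53.4, 48.7 and 54.2 FPKM in P3, with -0.58 in FFSS (adjusted p = 0.00646), -0.10 in P9 (adjusted p = 0.603) and 0.47 in P9 against FFSS (adjusted p = 0.00822).

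The other synthetases that fell in FFSS were Iars (isoleucine, log2 fold change -0.54, adjusted p = 0.011), Lars (leucine, -0.46, adjusted p = 0.0273), Nars (asparagine, -0.54, adjusted p = 0.00589) and Sars (serine, -0.48, adjusted p = 0.0106). Leaving out P3 replicate 1 ended the calls of Iars, Lars and Sars, P3 replicate 2 those of Iars and Lars, and FFSS replicate 3 or P3 replicate 3 that of Lars (adjusted p = 0.0503 to 0.0947). In P9 none of these 4 passed (adjusted p = 0.0693 to 0.653; Nars 0.0366 without FFSS replicate 1). Aars, for alanine, lay below P3 in every FFSS library, at 86.7, 95.9 and 89.7 FPKM in FFSS against 112, 110.0 and 112 FPKM in P3, and did not pass (log2 fold change -0.29, adjusted p = 0.0605; 0.0441 without P9 replicate 1).

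Mars, for methionine, was the 1 synthetase whose FFSS libraries overlapped P3. It stood at 46.6, 44.1 and 44.2 FPKM in P9, at 39.6, 48.3 and 45.2 FPKM in FFSS and at 44.6, 43.9 and 41.4 FPKM in P3, with log2 fold changes of 0.05 in P9 (adjusted p = 0.817) and 0.03 in FFSS (95% interval -0.20 to 0.26, adjusted p = 0.855). It is also the synthetase whose end overlaps Ddit3. Its promoter held TGATGCAA, as did those of Cars, Iars, Nars, Tars and Yars shown above. In FFSS, 5 of the 7 synthetases with a match fell, with log2 fold changes from -0.69 to 0.03 and a median of -0.54. All 4 synthetases whose promoters held no match (Lars, Sars, Wars and Eprs) fell, from -0.97 to -0.46 with a median of -0.67.

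**Figure D4:**
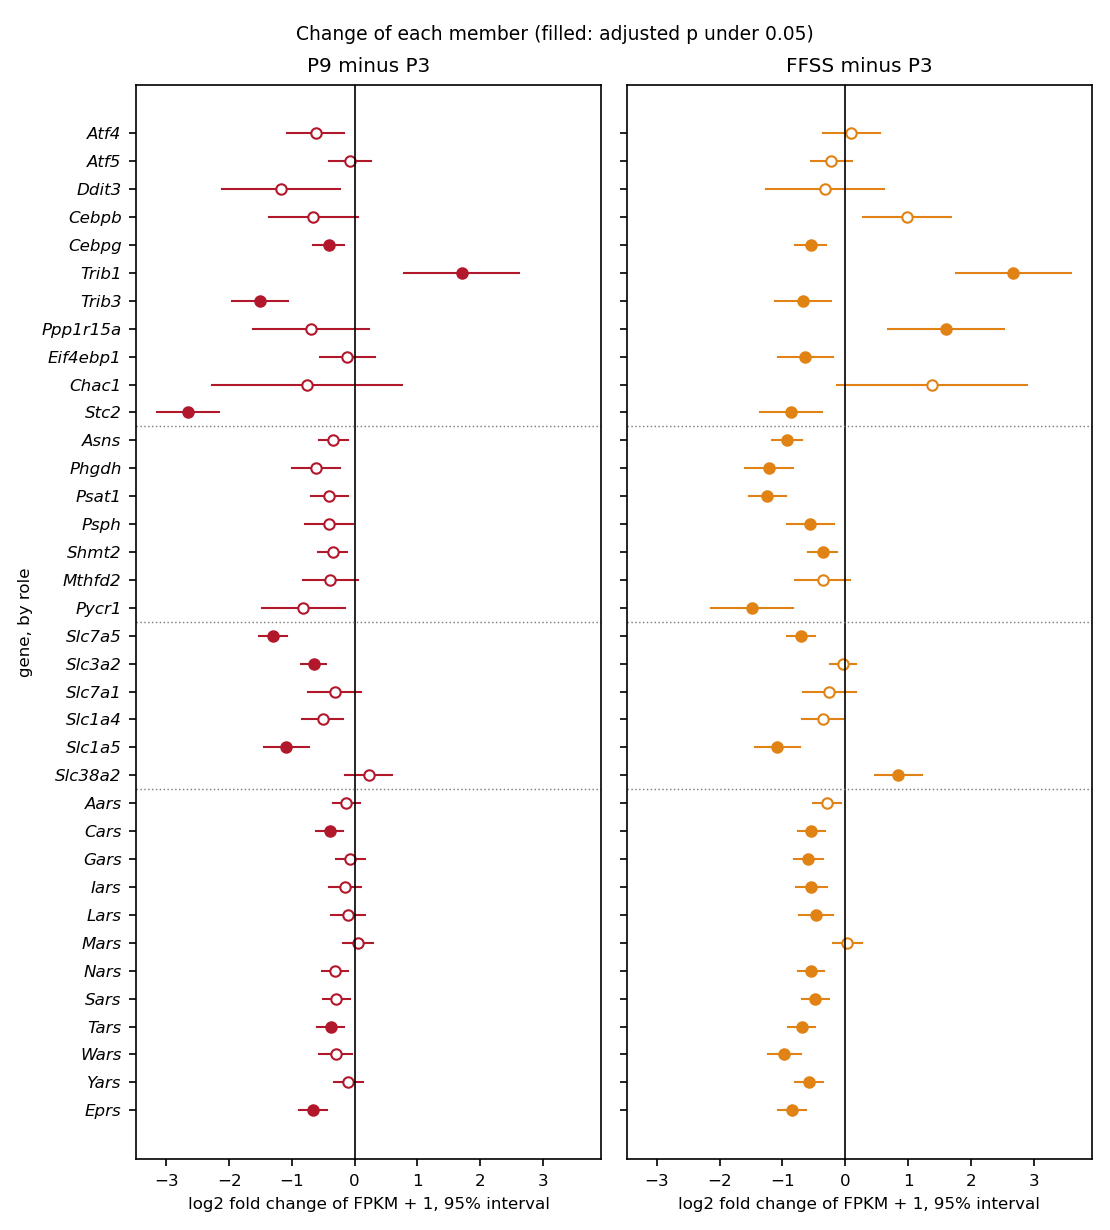
Log2 fold change of FPKM + 1 with its 95% interval for the 36 tested genes, grouped by role with dotted lines between groups, for P9 minus P3 (left) and FFSS minus P3 (right); filled points have an adjusted p under 0.05 (limma). In FFSS the filled points of the enzymes and synthetases lie below 0 and Trib1, Ppp1r15a and Slc38a2 lie above it.

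Synthetases outside the set are given beside these. Of the 11 other cytosolic synthetases and cofactors, 0 passed in P9 and 3 fell in FFSS, against 10.4% of all tested genes, with median log2 fold changes of -0.00 in P9 and -0.21 in FFSS. The 3 were Eef1e1, a scaffold protein of the multisynthetase complex (-0.59, adjusted p = 0.00943), Farsb, for phenylalanine (-0.47, adjusted p = 0.0151), and Vars, for valine (-0.86, adjusted p = 0.0499). Farsb lost its call without FFSS replicate 3 or P3 replicate 1 or 2 (adjusted p = 0.0628 to 0.0712) and Vars without any single library but FFSS replicate 1 (adjusted p = 0.0652 to 0.135). Without FFSS replicate 1, 5 fell in FFSS, where 19.7% of all tested genes did. Without FFSS replicate 3, P3 replicate 1 or P3 replicate 2, 1 fell, where 4.03 to 5.38% of all tested genes did. Dars, for aspartate, the next by adjusted p, did not pass (-0.36, adjusted p = 0.0653). In P9, 1 gene of this list was lower at an unadjusted p under 0.05, as were 1445 of all 13059 tested genes. With voom, 0 passed.

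Of the 16 tested mitochondrial synthetases, which charge tRNAs inside the organelle, 0 passed in P9 and 1 fell in FFSS, Ears2, for glutamate (-0.58, adjusted p = 0.0328), with medians of 0.09 in P9 and -0.07 in FFSS. The single fall is no more than the background, since 10.4% of all tested genes fell in FFSS. In P9, 1 was higher at an unadjusted p under 0.05, as were 1579 of all 13059 tested genes. With voom, 0 passed. Ears2 lost its call without P9 replicate 2, FFSS replicate 2 or 3 or any one P3 library (adjusted p = 0.0532 to 0.116). Without FFSS replicate 1, 1 rose in P9, where 9.53% of all tested genes did. In that fit 5 fell and 1 rose in FFSS, where 19.7% and 19.3% of all tested genes did. Hars2 (adjusted p = 0.06) and Pars2 (adjusted p = 0.102) did not pass in FFSS. Whether the classes of synthetase differ was not tested.

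**Figure D5:**
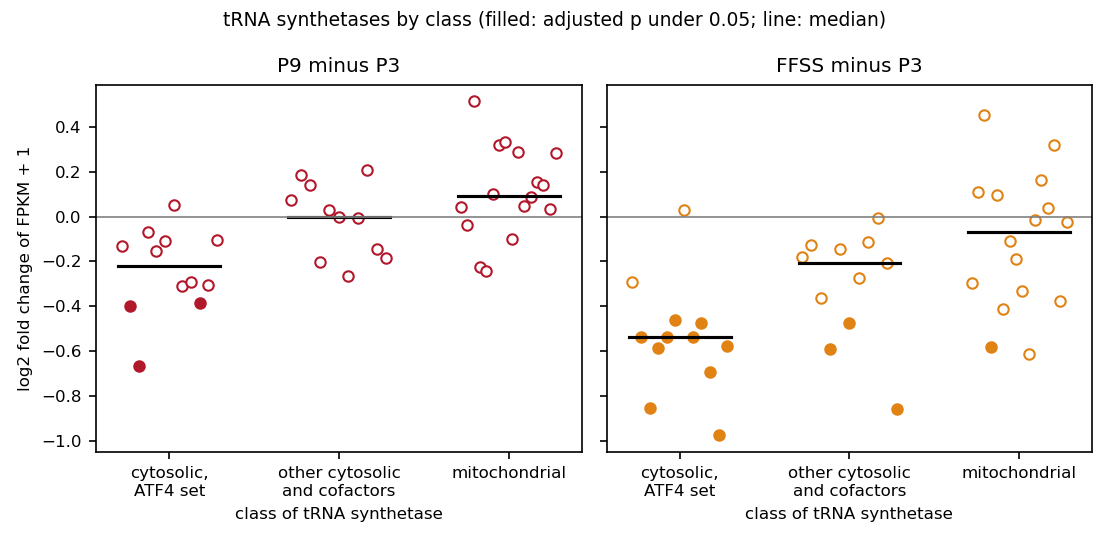
Log2 fold change of FPKM + 1 for each tested tRNA synthetase or cofactor in 3 classes, for P9 minus P3 (left) and FFSS minus P3 (right); filled points have an adjusted p under 0.05 (limma) and lines are medians. In FFSS the median of the 12 synthetases of the ATF4 set is -0.54, that of the 11 other cytosolic ones -0.21 and that of the 16 mitochondrial ones -0.07.

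Upstream of ATF4, genes of eIF2, its kinases and its exchange factor were tested in the same fit. Of 16, 1 rose and 0 fell in P9 (2 lower at an unadjusted p under 0.05, 0 with voom), and 4 fell and 0 rose in FFSS (1 higher at an unadjusted p under 0.05, 0 with voom). Of all tested genes, 5.39% rose in P9 and 10.4% fell in FFSS, so the single rise in P9 is near the background. At an unadjusted p under 0.05, 1445 of all 13059 tested genes were lower in P9 and 2410 higher in FFSS. Eif2ak1 encodes HRI, the kinase activated by haem shortage and mitochondrial stress. It stood at 34.8, 31.5 and 29.1 FPKM in P9, at 20.6, 21.9 and 20.8 FPKM in FFSS and at 20.8, 21.5 and 22.0 FPKM in P3. P9 lay above both other groups, with a log2 fold change of 0.54 against P3 (adjusted p = 0.00978; 0.0612 without P3 replicate 1). In FFSS, Eif2s2, the beta subunit of eIF2, fell by 0.48 (adjusted p = 0.00961), and the exchange factor subunits Eif2b3 and Eif2b1 fell by 0.64 (adjusted p = 0.0127) and 0.51 (adjusted p = 0.0129), and both calls were lost without P3 replicate 1, that of Eif2b3 also without P3 replicate 2 and that of Eif2b1 also without P3 replicate 3 (adjusted p = 0.0549 to 0.0587). In P9, 1 fell without FFSS replicate 1, where 7.78% of all tested genes did. The FFSS count was 7 lower and 1 higher without FFSS replicate 1, where 19.7% and 19.3% of all tested genes were. It was 1 lower without P3 replicate 1 and 2 lower without P3 replicate 2, where 4.03% and 4.44% of all tested genes were.

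Among other reported ATF4 targets, 7 of 26 tested fell and 0 rose in P9 (1 higher at an unadjusted p under 0.05, 0 with voom), and 8 fell and 3 rose in FFSS, where of all tested genes 4.44% fell and 5.39% rose in P9 and 10.4% fell and 11.4% rose in FFSS, with medians of -0.42 in P9 and -0.08 in FFSS. At an unadjusted p under 0.05, 1579 of all 13059 tested genes were higher in P9. Slc7a3, a carrier of cationic amino acids, fell by 1.01 in P9 (adjusted p = 0.00309) and by 1.16 in FFSS (adjusted p = 0.00172) on the log2 scale. Aldh1l2, of mitochondrial folate metabolism, fell by 0.90 in P9 (adjusted p = 0.003) and by 0.61 in FFSS (adjusted p = 0.0119; 0.0502 to 0.055 without P3 replicate 1 or 3). Lonp1, a mitochondrial protease, fell by 0.59 in P9 (adjusted p = 0.016; 0.0525 to 0.0747 without P9 replicate 1 or any one P3 library) and by 1.07 in FFSS (adjusted p = 0.00117). Slc7a11, the cystine carrier, fell by 0.92 in P9 (adjusted p = 0.00312), and its FFSS change was -0.10 (adjusted p = 0.628). Without FFSS replicate 1, 12 fell and 1 rose in P9 (7.78% and 9.53% of all tested genes), and 9 fell and 11 rose in FFSS (19.7% and 19.3% of all tested genes). Without FFSS replicate 2, 1 rose in P9, where 7.11% of all tested genes did. Without P3 replicate 1, 5 fell in FFSS, and without FFSS replicate 3, 1 rose. There, 4.03% and 5.55% of all tested genes did.

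Genes of the unfolded protein response outside ATF4 fell in P9 in part. Of 20, 5 fell and 0 rose in P9 (0 higher at an unadjusted p under 0.05 and with voom), where 18 lay wholly below P3, and 2 fell and 2 rose in FFSS, near the 10.4% and 11.4% of all tested genes, with medians of -0.36 in P9 and -0.01 in FFSS. In P9, 4.44% of all tested genes fell and 19.1% lay wholly below P3, and 1579 of all 13059 were higher at an unadjusted p under 0.05. Hspa5, the chief chaperone of the endoplasmic reticulum, fell by 0.78 in P9 (adjusted p = 0.00373), with -0.21 in FFSS (adjusted p = 0.224). The stress sensor Atf6 fell by 0.68 in P9 (adjusted p = 0.0144; 0.0592 to 0.0747 without P9 replicate 2 or 3 or P3 replicate 1 or 2) and by 0.77 in FFSS (adjusted p = 0.00669). Hyou1, a chaperone, fell by 0.43 in P9 (adjusted p = 0.0165; 0.0529 to 0.0903 without P9 replicate 2 or 3 or any one P3 library), and the ubiquitin ligase Syvn1 by 0.51 in FFSS (adjusted p = 0.0112; 0.0533 without P3 replicate 2). The P9 count was 1 or 2 without P9 replicate 2 or 3 or any one P3 library, where 1.99 to 3.1% of all tested genes fell. Without FFSS replicate 1, the FFSS count was 4 lower and 5 higher, where 19.7% of all tested genes were lower and 19.3% higher. In FFSS, 4 fell without P9 replicate 1 and 1 without P3 replicate 2, where 11.1% and 4.44% of all tested genes did. Without P9 replicate 3, FFSS replicate 2 or 3 or any one P3 library, 0 or 1 rose. There, 5.09 to 10.0% of all tested genes rose.

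Other enzymes of serine, glycine, glutamine and proline metabolism were counted in the same way. Of 13 tested, 1 fell and 2 rose in P9, and 0 fell and 2 rose in FFSS (2 lower at an unadjusted p under 0.05, 0 with voom), where of all tested genes 4.44% fell and 5.39% rose in P9 and 10.4% fell and 11.4% rose in FFSS. At an unadjusted p under 0.05, 2465 of all 13059 tested genes were lower in FFSS. Glul, glutamine synthetase, stood at 76.0, 88.0 and 84.2 FPKM in P9, at 102, 67.3 and 76.5 FPKM in FFSS and at 31.0, 36.8 and 28.4 FPKM in P3. All 6 libraries were above P3, with log2 fold changes of 1.35 in P9 (SE 0.166, adjusted p = 0.00148) and 1.31 in FFSS (SE 0.166, adjusted p = 0.00175). Shmt1, the cytosolic counterpart of Shmt2, rose in P9 by a log2 fold change of 0.77 (adjusted p = 0.0365; 0.0613 to 0.131 without P9 replicate 1 or 2, FFSS replicate 3 or any one P3 library). Glud1, which breaks down glutamate, fell in P9 by 0.46 (adjusted p = 0.0199; 0.0652 to 0.106 without P9 replicate 2 or 3 or P3 replicate 1 or 3), and Sds, which breaks down serine, rose in FFSS by 0.61 (adjusted p = 0.0323; 0.0664 to 0.107 without FFSS replicate 2 or 3 or any one P3 library). Without FFSS replicate 1, 4 fell and 3 rose in FFSS, where 19.7% and 19.3% of all tested genes did. Of the counts of 1 or 2, each became 0 or 1 without one or more of the libraries named for Shmt1, Glud1 and Sds.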

How the data were processed

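Polyadenylated RNA of 9 libraries, 3 each of P9, FFSS and P3, was analysed from 1 table of 34267 genes. Per the submitters' processing notes, reads went through HISAT2 2.0.5 and featureCounts 1.5.0-p3 on rat build Rnor_6.0; their settings, the annotation release and whether fragments were counted by strand are not given in the sources used here. The deposited values are FPKM, which scale fragments by gene length and library size. FPKM multiplied by the deposited gene length was a whole multiple of 1 step per library for 100% of values (tolerance 0.01 of a step), and the step followed median-of-ratios size factors in place of plain totals, which the deposited FPKM thus include. The steps gave totals of 13264930 to 15323790 fragments, and floors from them reflect counting alone, as amplified fragments lacking molecular identifiers need not be independent.

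The 13059 genes that reached 1 FPKM in 3 or more libraries were fitted as log2(FPKM + 1) by limma 3.58.1 (R 4.3.3), with 3 group means, all 9 libraries and a trend in the spread (6 residual and 2.93 prior degrees of freedom). Because 1 is added, a fold change understates that of a low gene. Each of P9 and FFSS was set against P3, and P9 against FFSS. Tests were two-sided, with Benjamini-Hochberg adjustment over all 13059 genes and calls at an adjusted p under 0.05. A count model had been planned for raw counts and limma for FPKM, so limma was used. The fit was tested on simulated data with known changes. Alternatives were a pseudocount of 0.1, no filter, a filter of 5 FPKM, scaling by totals, a replicate block, only the groups compared, voom on the recovered fragments, a log2 fold of at least 1 and leaving out each library in turn. Python 3.11.15 with pandas 2.3.3 and NumPy 2.4.6 made the tables, and matplotlib 3.10.9 the figures. Promoter sequences are RefSeq's of GRCr8 and were matched by symbol or synonym.

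Every gene of the set is reported by role, and of each pathway list the 4 genes with the smallest adjusted p in P9 or FFSS against P3 are named, except that a gene and a promoter sequence are not reported here. The genes and lists were chosen with earlier results of these data known. A gene called lost without a library was refitted with that library alone left out, also where several are named.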

Additional observations from a re-analysis of the deposited data

How the results depend on the processing

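In P9 against P3, 9 genes of the set were lower and 1 higher. The count lower was 6 to 18 when single libraries were left out, against 1.99 to 7.78% of all tested genes. It was 20 with only the 2 groups fitted, against 8.76% of all tested genes. At a log2 fold of at least 1 it was 4, against 2.17%. The count higher was 0 to 1 when single libraries were left out, against 2.35 to 9.53% of all tested genes. It was 0 without a filter, with the replicate block and with voom, against 3.11%, 4.21% and 5.5%. In FFSS against P3, 22 were lower and 3 higher. These were 14 to 22 and 2 to 4 when single libraries were left out. Of all tested genes, 4.03 to 19.7% were then lower and 5.09 to 19.3% higher. At a log2 fold of at least 1, 4 were lower, against 3.12%. In P9 against FFSS, 9 were lower and 8 higher. These were 6 to 11 and 5 to 10 when single libraries were left out. Of all tested genes, 9.25 to 22.0% were then lower and 10.0 to 23.7% higher. Higher were 5 with only the 2 groups fitted, against 9.99% of all tested genes. At a log2 fold of at least 1, 4 were lower and 0 higher, against 7.08% and 6.12%. With the replicate block, the counts lower and higher were 6 and 0 in P9 against P3, 18 and 3 in FFSS against P3 and 9 and 5 in P9 against FFSS. The shares of all tested genes there were 3.31% and 4.21%, 8.12% and 9.22%, and 13.7% and 14.1%. Deviations of same-numbered libraries from their group means correlated at -0.0408 to 0.0331. Differently numbered libraries were not compared in this way and each group has 3 libraries. Whether the numbers pair the libraries is therefore not settled. Why counts moved with the libraries fitted was not tested. A pseudocount of 0.1, a filter of 5 FPKM and scaling by totals kept each count of the set within 1.5 times. No gene of the set, and no other gene named by the rule for the pathway lists, changed direction while called under any alternative. Each tested gene of the set had at least 22 fragments in every library, the lowest being Stc2 in P9.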

Other observations

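Some reported ATF4 targets outside the set had FFSS values that split by library; these were chosen after their values were seen. Atf3, a repressor induced early in stress, stood at 1.71, 1.22 and 1.06 FPKM in P9, at 10.8, 116 and 61.7 FPKM in FFSS and at 4.0, 3.94 and 3.98 FPKM in P3, and its log2 fold change in FFSS against P3 was 3.15 (limma adjusted p = 0.0129). Fgf21, a secreted stress hormone, stood at 0.117, 0.314 and 0.0987 FPKM in P9, at 0.640, 35.5 and 15.5 FPKM in FFSS and at 0.422, 1.27 and 0.864 FPKM in P3. Gdf15, another secreted stress signal, stood at 2.17, 3.45 and 2.99 FPKM in P9, at 2.35, 48.7 and 34.6 FPKM in FFSS and at 3.05, 4.06 and 2.08 FPKM in P3. Neither Fgf21 (adjusted p = 0.0874) nor Gdf15 (adjusted p = 0.0951) passed in FFSS against P3. In each of these genes FFSS replicate 1 was far below FFSS replicates 2 and 3, as for Chac1 and Ppp1r15a. The 3 FFSS libraries had similar medians of the enzymes and of the synthetases of the set, but a median can hide single genes. In FFSS the enzyme Mthfd2 stood at 35.7, 63.5 and 57.3 FPKM and Pycr1 at 12.2, 4.66 and 6.40 FPKM. As the genes above were chosen for their split, setting them against those medians tests nothing.

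The table has 2 rows named Nupr1l1, a symbol that RefSeq lists as a synonym of Nupr1. The row with the higher mean stood at 1.37, 2.87 and 1.16 FPKM in P9, at 1.67, 143 and 62.9 FPKM in FFSS and at 2.27, 1.81 and 1.59 FPKM in P3. Its log2 fold change in FFSS against P3 was 3.34 (adjusted p = 0.0767), and 5.06 (adjusted p = 5.58e-05) without FFSS replicate 1. Near-identical copies could divide its fragments, and it was not counted in the set.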
